A study of Homo sapiens with 4 samples.

Results

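The genes named UBE2 encode most of the ubiquitin-conjugating (E2) enzymes of human cells, and their RNA was compared between a DLD-1 line made to overexpress miR-21 (DLD-1-miR-21) and its vector control (DLD-1-vector). The members were all probes whose only symbol in the platform annotation starts with UBE2. This gave 43 of 31741 probes and 29 of 18365 named genes. By RefSeq biotype 26 of the 29 are protein-coding, UBE2NL and UBE2Q2P1 are transcribed pseudogenes, and UBE2E2-AS1, an antisense transcript, was not matched. UBE2D1, UBE2D2, UBE2D3, UBE2L3, UBE2M and UBE2W are among those not analysed here, and neither is UBE2V1, whose probe carries a second symbol.

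DLD-1 is a human colorectal cancer cell line. Both lines were made from it by stable transfection, DLD-1-vector with the empty plasmid pCMV-MIR and DLD-1-miR-21 with a plasmid that encodes human miR-21. Both were selected and kept in G418, and each was a pool of clones picked for the green fluorescent protein of the plasmid. RNA of each line was hybridized to 2 single-color Human OneArray Plus arrays. Nothing states that both arrays of a line had cultures of their own, so the p-values here measure a spread between arrays that may be technical. An intensity averages all cells of a culture, and a change per cell and a change in the share of cells cannot be told apart.

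Ubiquitin reaches its targets in a relay. An E1 enzyme activates it with ATP and hands it to the active-site cysteine of an E2, and the E2, bound to an E3 ligase that recognizes the target, passes it on to a lysine. The E2 often decides which lysine of ubiquitin the next one is joined to, and so whether a chain sends the target to the proteasome or serves as a signal. A few E2 enzymes carry related proteins instead, such as NEDD8 or ISG15.

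The plasmid of DLD-1-miR-21 cells was built to raise miR-21-5p, a miRNA that lowers messages by pairing through its seed. Its mature form is printed with the seed (bases 2 to 8) in capitals, and its precursor hairpin with the mature strand in capitals. Both come from RefSeq (GRCh38.p14). The hairpin lies on the plus strand at chr17:59841266-59841337 and the mature strand at chr17:59841273-59841294.
hsa-miR-21-5p: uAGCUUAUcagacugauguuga
MIR21 hairpin: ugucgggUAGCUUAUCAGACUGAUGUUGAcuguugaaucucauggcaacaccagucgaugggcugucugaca
No probe of these arrays carried the symbol MIR21 alone, so miR-21 itself was not checked here. The study reported by qPCR that DLD-1-miR-21 cells had more miR-21 and less PDCD4 mRNA. It also reported less PDCD4 protein in them by Western blot. PDCD4, a target of miR-21 named in the study, had a log2 ratio of -0.08 on its brighter probe (adjusted p = 0.617 from limma) and fell by 0.65 on a dim second one (adjusted p = 0.0225 from limma), a call that was not made with median scaling.

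Deposited intensities had a median of 571 on each DLD-1-vector array, against 255 and 339 for DLD-1-miR-21. The intensities were therefore quantile-normalized, which gives every array the same distribution, and log2 of the value plus 50 is called the log2 signal here. A log2 ratio is the mean log2 signal of DLD-1-miR-21 minus that of DLD-1-vector. Its median over all probes was 0.07, against -0.63 without normalization, so every rise below is a rise relative to the other probes. Of 7 measured epithelial markers, 6 were brighter than the median probe, EPCAM, CDH1 and KRT19 among them. That held for 1 of 5 fibroblast, 1 of 3 blood cell and 2 of 3 endothelial markers, and none of these lists lay at 0. Between the lines, CD14 (1.43) was called higher among the 3 blood cell markers, PDGFRB (1.10) and COL1A2 (0.73) among the 5 fibroblast markers and VWF (0.81) among the 3 endothelial ones, with none of these lists called lower (limma, adjusted p under 0.05), and none of the 4 genes was called without normalization. Of the epithelial markers, KRT20 (1.28) and VIL1 (1.58) were higher and EPCAM (-1.13) and KRT8 (-1.17) lower. Summed deposited intensities on the 4 arrays were 2380 to 4904 for the fibroblast list and 3037 to 3910 for the blood cell list. The endothelial list had 1693 to 2475 and the epithelial list 142422 to 328990. The part of the fibroblast, blood cell and endothelial markers in the results was not tested.

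UBE2 probes moved in both directions. Of the 43 probes, 12 rose and 16 fell in the line with miR-21 at an adjusted p under 0.05 (limma, Benjamini-Hochberg over all probes), and 15 were not called. The share called was 65.1%, against 44.8% of all probes. By direction, 27.9% of UBE2 probes were higher and 37.2% lower, against 23.0% and 21.8% of all probes. Among the 36 UBE2 probes brighter than the median probe, 66.7% were called, 11 higher and 13 lower, while 54.7% of all such probes were called, 28.2% higher and 26.4% lower. Brightness here is the mean over all 4 arrays, and 1 of the 11, the brighter UBE2QL1 probe, passed only through its level with miR-21. The median log2 ratio of UBE2 probes was -0.21, with quartiles of -1.19 and 0.48. It turned to 0.04 without DLD-1-miR-21 replicate 2 and to 0.01 over the 36 brighter probes. The arrays of the lines did not overlap for 37 of the 43 probes, 17 higher and 20 lower, which was so for 76.2% of all probes, 41.4% higher and 34.8% lower.

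The split between directions moved with the scaling of the arrays, over all probes as among UBE2 probes. Of all 31741 probes, 7294 were higher and 6912 lower, then 6032 and 6294 with median scaling and 416 and 14025 without normalization. For UBE2 probes the split went from 12 and 16 to 5 and 17 with median scaling and to 1 and 34 without normalization. Without DLD-1-miR-21 replicate 1 it was 2 and 14, without DLD-1-vector replicate 2 it was 6 and 14, and no probe of the arrays passed without DLD-1-miR-21 replicate 2 (each such fit takes its spread from the line that keeps both arrays and assumes the lone array varies alike), where the unadjusted p from limma was under 0.05 for 13 UBE2 probes that were higher and 15 that were lower.

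**Figure D1:**
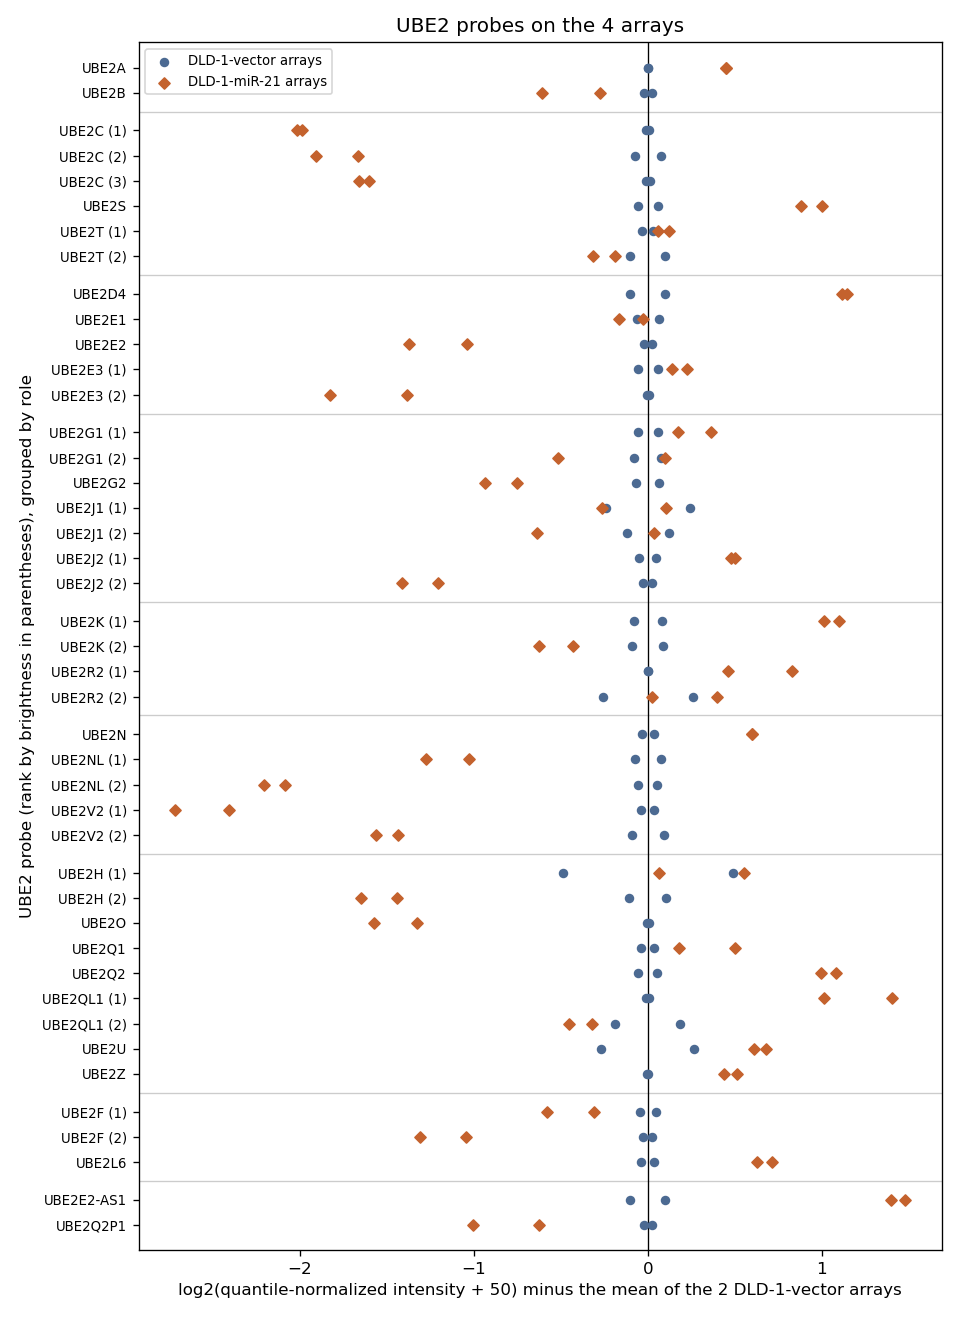
Log2 signal of each of the 43 UBE2 probes on the 4 arrays, minus the mean of the 2 DLD-1-vector arrays (x axis, log2 units). Probes are grouped by the role of their gene and ranked by brightness within a gene. Circles are DLD-1-vector and diamonds DLD-1-miR-21 arrays. In 37 of 43 rows the circles and diamonds do not overlap, with UBE2V2 furthest to the left.

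**Figure D2:**
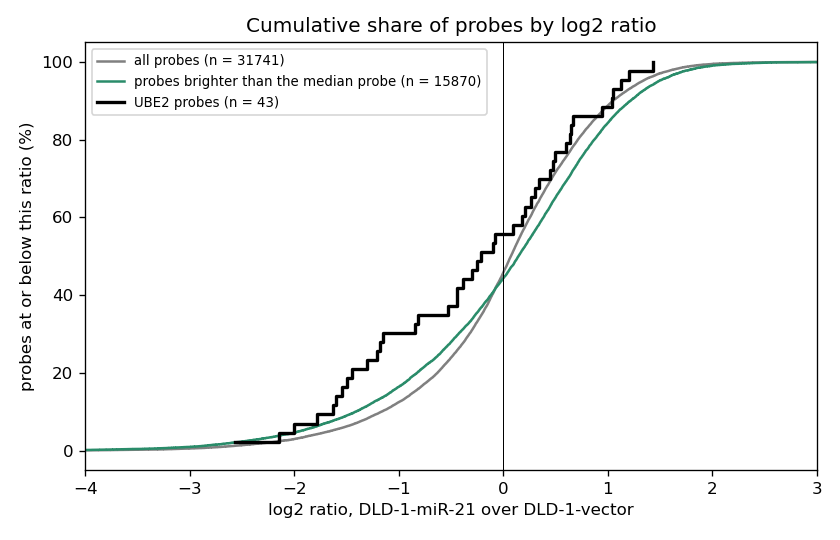
Cumulative share of probes (y axis, percent) at or below a log2 ratio (x axis), for all 31741 probes, the 15870 probes brighter than the median one, and the 43 UBE2 probes. The view is cropped at -4 and 3. The UBE2 curve runs above the others over most negative ratios and comes near them among the positive ones.

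UBE2C and UBE2S, the pair of E2 enzymes that serve the anaphase-promoting complex (APC/C) in mitosis, moved apart. UBE2C, which puts the first ubiquitins on targets such as cyclin B and securin, fell on all 3 of its probes. The brightest had a log2 signal of 16.18 and 16.20 in DLD-1-vector cells and of 14.18 and 14.20 in those with miR-21, a log2 ratio of -2.0 (limma adjusted p = 0.00209, standard error 0.12, 95% interval -2.31 to -1.69). In deposited intensity this was 95842 and 104139 against 10622 and 11579. The other probes had log2 ratios of -1.79 and -1.63 (adjusted p = 0.00304 and 0.00253 from limma). Only 2.99% of all probes had a ratio at or below that of the brightest UBE2C probe.

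UBE2S, which lengthens the chains that UBE2C begins, had 1 probe. Its log2 signal was 12.90 and 12.78 in DLD-1-vector cells and 13.84 and 13.73 in DLD-1-miR-21 cells, so the lines did not overlap, and it rose by 0.94 on the log2 scale (limma adjusted p = 0.00744, standard error 0.13). This rise depended on normalization. The deposited intensities were 10232 and 10289 against 8357 and 8380, with a log2 ratio of -0.29 without normalization, and the rise was not called with median scaling (0.66, adjusted p = 0.0502 from limma) or without DLD-1-miR-21 replicate 1 (0.88, adjusted p = 0.0559 from limma).

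The unequal change of the pair was also expressed within each array. The resulting difference restates the log2 ratios above and is no separate evidence, which also holds for UBE2N and UBE2V2 below. Subtracting 2 probes of an array removes a scale factor they share, so values with and without normalization are close largely by construction. Within an array, the UBE2S log2 signal minus that of UBE2C was -3.28 and -3.41 in DLD-1-vector cells and -0.33 and -0.48 in DLD-1-miR-21 cells. The difference between the lines was 2.94 (standard error 0.10), and 2.87 without normalization. An exact permutation test gave p = 0.333 (two-sided), the smallest that 2 arrays against 2 allow. UBE2T, which with the ligase FANCL modifies FANCD2 in the repair of DNA crosslinks, passed on neither probe. Its log2 ratios were 0.09 (95% interval -0.23 to 0.41) and -0.25 (95% interval -0.62 to 0.12).

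Another pair of partners also changed unequally. UBE2N (UBC13) builds ubiquitin chains that signal rather than degrade, and does so only when bound to a UBE2V protein that lacks the active cysteine. UBE2V2 (MMS2), its partner in the damage response, fell on both probes. On the brighter one the log2 signal was 12.31 and 12.38 in DLD-1-vector cells and 9.94 and 9.63 in DLD-1-miR-21 cells. The log2 ratio of -2.56 (limma adjusted p = 0.00222, standard error 0.16) was the lowest of the 43 probes, and 1.26% of all probes lay at or below it. In deposited intensity the signal went from 6857 and 7750 to 512 and 535. The dimmer probe had 8.86 and 9.04 against 7.52 and 7.39 and a log2 ratio of -1.50 (adjusted p = 0.00352 from limma).

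UBE2N itself had a log2 signal of 14.26 and 14.19 in DLD-1-vector and of 14.82 on both DLD-1-miR-21 arrays. It rose by 0.60 (limma adjusted p = 0.0182, standard error 0.12), but not with median scaling (0.38, adjusted p = 0.206 from limma) and it was called lower without normalization (-0.57, adjusted p = 0.0421 from limma). Neither did it pass without DLD-1-vector replicate 2 (adjusted p = 0.0684 from limma) or DLD-1-miR-21 replicate 1 (adjusted p = 0.0757 from limma). UBE2N minus UBE2V2 within an array was 1.95 and 1.81 in DLD-1-vector cells and 4.88 and 5.19 in DLD-1-miR-21 cells, a difference of 3.16 (standard error 0.17), with 3.11 without normalization (exact permutation p = 0.333, two-sided).

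UBE2NL, an intronless copy of UBE2N, fell on both of its probes, with log2 ratios of -1.15 and -2.14 (adjusted p = 0.00689 and 0.00215 from limma). Its probes had deposited intensities of 41025 to 48178 on the DLD-1-vector arrays and 4269 to 9382 on the DLD-1-miR-21 arrays. UBE2N and UBE2NL are nearly the same in sequence, so which of their transcripts these probes bound is uncertain, and the UBE2N and UBE2NL probes moved in opposite directions.

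**Figure D3:**
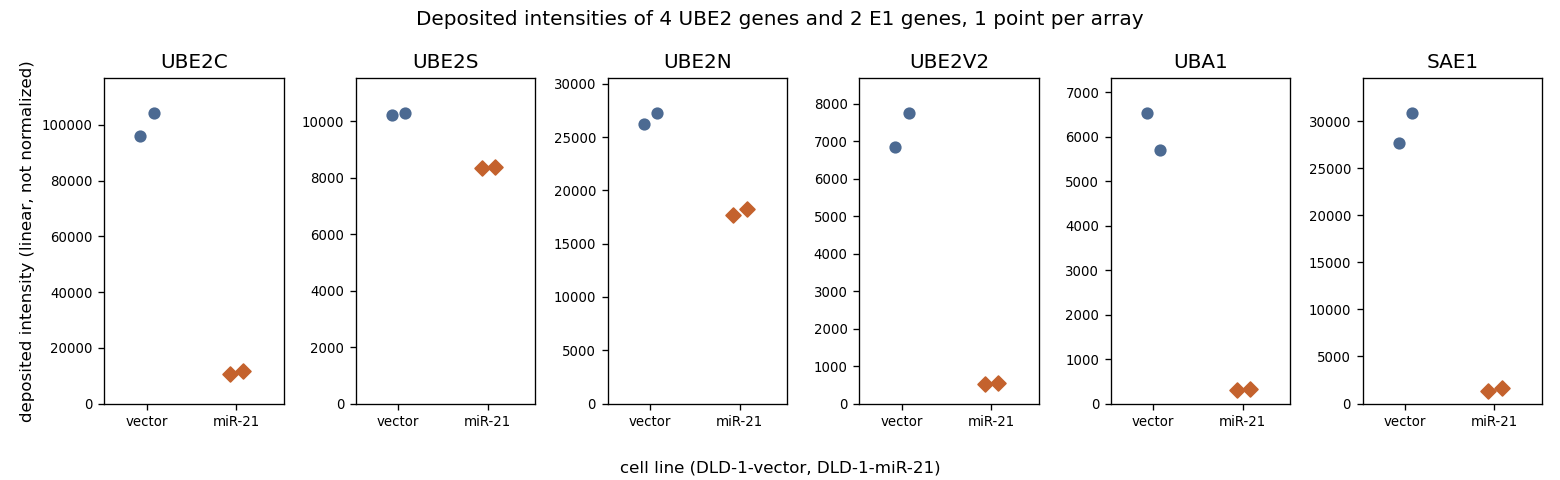
Deposited intensities (y axis, linear scale from 0, not normalized) of the brightest probes of UBE2C, UBE2S, UBE2N, UBE2V2, UBA1 and SAE1, with 1 point per array (circles DLD-1-vector, diamonds DLD-1-miR-21). UBE2C goes from 95842 and 104139 to 10622 and 11579, and UBE2V2 from 6857 and 7750 to 512 and 535. UBE2S and UBE2N fall far less on this scale.

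The RAD6 type enzymes, UBE2A and UBE2B, monoubiquitinate histone H2B with RNF20 and RNF40 and PCNA with RAD18. UBE2A had a log2 signal of 13.51 on both DLD-1-vector arrays and of 13.96 on both DLD-1-miR-21 arrays and rose by 0.45 (limma adjusted p = 0.0352, standard error 0.12). This small rise was lost with median scaling (0.17), with cyclic loess (0.34) and without any single array, and without normalization the probe was called lower (-0.78, adjusted p = 0.0186 from limma). UBE2B had 10.64 and 10.69 against 10.39 and 10.06, with a log2 ratio of -0.44 that was not called (95% interval -0.87 to -0.01, adjusted p = 0.0869 from limma). It was called lower under the other scalings, with -0.69 for median scaling, -0.47 for cyclic loess and -1.60 without normalization (adjusted p = 0.0435, 0.0499 and 0.00207 from limma).

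In the UBE2D and UBE2E groups, whose members work with many different ligases, UBE2D4 rose. Its log2 signal was 10.75 and 10.56 with vector and 11.80 and 11.77 with miR-21, so that it rose by 1.13 (limma adjusted p = 0.00561, standard error 0.13). Its deposited intensities, 2299 and 2093 against 1883 and 2143, overlapped between the lines, with a ratio of -0.12 without normalization. Without DLD-1-miR-21 replicate 1 the rise was not called (adjusted p = 0.0556 from limma). Of the 3 UBE2E genes, 1 was called on its brightest probe. UBE2E1 had a log2 ratio of -0.10 (95% interval -0.45 to 0.25) and UBE2E3 of 0.18 on its brighter probe, neither called.

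UBE2E2 fell from 8.96 and 9.00 to 7.95 and 7.61, a log2 ratio of -1.20 (limma adjusted p = 0.0073, standard error 0.16). Its mean log2 signal, 8.38, lay below that of the median probe, with deposited intensities of 591 and 617 against 128 and 137. Its antisense transcript UBE2E2-AS1 went the other way, from 7.16 and 7.37 to 8.75 and 8.66. That was a log2 ratio of 1.44 (limma adjusted p = 0.00375, standard error 0.14), the highest of the 43 probes. It was also the single UBE2 probe called higher without normalization, where its ratio was 0.83. Its deposited intensities were 122 and 123 against 225 and 290, below the median of the array in each case.

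Of the E2 enzymes of endoplasmic reticulum-associated degradation, which tag misfolded proteins of the secretory pathway for the proteasome, UBE2G2 fell. It had a log2 signal of 12.78 and 12.65 in DLD-1-vector and 11.97 and 11.78 in DLD-1-miR-21 cells (log2 ratio -0.84, limma adjusted p = 0.0117, standard error 0.14). Without DLD-1-miR-21 replicate 1 the ratio was -0.92 and not called (adjusted p = 0.056 from limma). UBE2J1, a membrane-anchored enzyme that works with SYVN1, overlapped between the lines on both probes, with ratios of -0.08 and -0.30. UBE2G1 was not called on either probe, with 0.27 and -0.21. UBE2J2, the other membrane-anchored enzyme, had 1 probe called in each direction.

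UBE2K and UBE2R2 build ubiquitin chains that the proteasome reads. UBE2K, also known as HIP2, had probes called in both directions. The brighter had 12.44 and 12.28 against 13.38 and 13.46 and rose by 1.06 (limma adjusted p = 0.00615, standard error 0.13), while the other had 13.02 and 13.19 against 12.67 and 12.48 and fell by 0.53 (adjusted p = 0.0427 from limma). UBE2R2, a relative of CDC34 that serves cullin ligases, rose by 0.64 on its brighter probe (12.05 on both DLD-1-vector arrays against 12.87 and 12.51, adjusted p = 0.0377 from limma), with 0.21 on the other (95% interval -0.44 to 0.86). The UBE2K rise was not called without DLD-1-miR-21 replicate 1 (adjusted p = 0.0515 from limma) and had a ratio of -0.19 without normalization. The UBE2R2 rise was not called with median scaling (0.34) or without any single array, and without normalization its probe was called lower (-0.61, adjusted p = 0.0458 from limma).

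Among the other ubiquitin enzymes, UBE2O, a large protein that acts as E2 and E3 at once and clears unassembled subunits, fell. Its log2 signal was 10.50 and 10.48 in DLD-1-vector and 9.16 and 8.92 in DLD-1-miR-21 cells (log2 ratio -1.45, limma adjusted p = 0.00392, standard error 0.14). UBE2Q2 rose from 12.68 and 12.57 to 13.71 and 13.62, a log2 ratio of 1.04 (adjusted p = 0.00576 from limma). UBE2QL1, a less studied relative of the UBE2Q enzymes, rose from 8.46 and 8.48 to 9.48 and 9.87 on its brighter probe (log2 ratio 1.21, adjusted p = 0.00869 from limma), while its dimmer probe had -0.39 and was not called. Without normalization, UBE2Q2 had -0.20 and UBE2QL1 0.27, and without DLD-1-miR-21 replicate 1 UBE2Q2 was not called (adjusted p = 0.0507 from limma).

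UBE2Z, which takes ubiquitin from the E1 enzyme UBA6, rose by 0.48 (13.08 and 13.07 against 13.51 and 13.59, adjusted p = 0.0327 from limma), but not with median scaling (0.19), cyclic loess (0.38) or without any single array, and it was called lower without normalization (-0.76, adjusted p = 0.0244 from limma). UBE2Q1, with 0.34, and UBE2U, with 0.65 (95% interval 0.08 to 1.21, adjusted p = 0.0677 from limma), were not called. UBE2H, the partner of the MAEA ligase complex, was called on its dimmer probe only. That probe had 11.08 and 11.30 against 9.75 and 9.55 and fell by 1.54 (adjusted p = 0.00397 from limma). On the brighter one the DLD-1-vector arrays themselves stood apart, with deposited intensities of 11398 and 24537, and the interval of its log2 ratio ran from -0.71 to 1.33.

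Of the enzymes for ubiquitin-like modifiers, UBE2L6, which conjugates ISG15, rose by 0.67 (9.83 and 9.90 against 10.58 and 10.49, adjusted p = 0.0147 from limma). The rise was not called with median scaling (0.43, adjusted p = 0.139 from limma) or without any single array, and without normalization the ratio was -0.48. UBE2F, which passes NEDD8 to a cullin together with RNF7, had -0.44 on its brighter probe (adjusted p = 0.072 from limma), which was called lower with median scaling (-0.76), cyclic loess (-0.51) and no normalization (-1.69), and fell by 1.18 on the dimmer one (10.87 and 10.82 against 9.81 and 9.54, adjusted p = 0.00635 from limma). The pseudogene UBE2Q2P1 fell by 0.81 (adjusted p = 0.0215 from limma), opposite to its parent UBE2Q2, at deposited intensities of 151 to 167 in DLD-1-vector and 40 to 42 in DLD-1-miR-21 cells. It was not called with median scaling (-0.62, adjusted p = 0.0512 from limma) or without DLD-1-vector replicate 2 (-0.75, adjusted p = 0.0749 from limma).

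Of the 43 probes, 18 passed the test with a log2 ratio of at least 1 in either direction, 5 higher and 13 lower. For all probes these shares were 9.34% and 12.2%. The 13 lower ones, of UBE2C, UBE2V2, UBE2NL, UBE2E2, UBE2E3, UBE2F, UBE2H, UBE2J2 and UBE2O, were called lower under all 3 other scalings. Of the 5 higher ones, UBE2D4, UBE2K and UBE2Q2 turned to ratios of -0.12, -0.19 and -0.20 without normalization, none called.

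**Figure D4:**
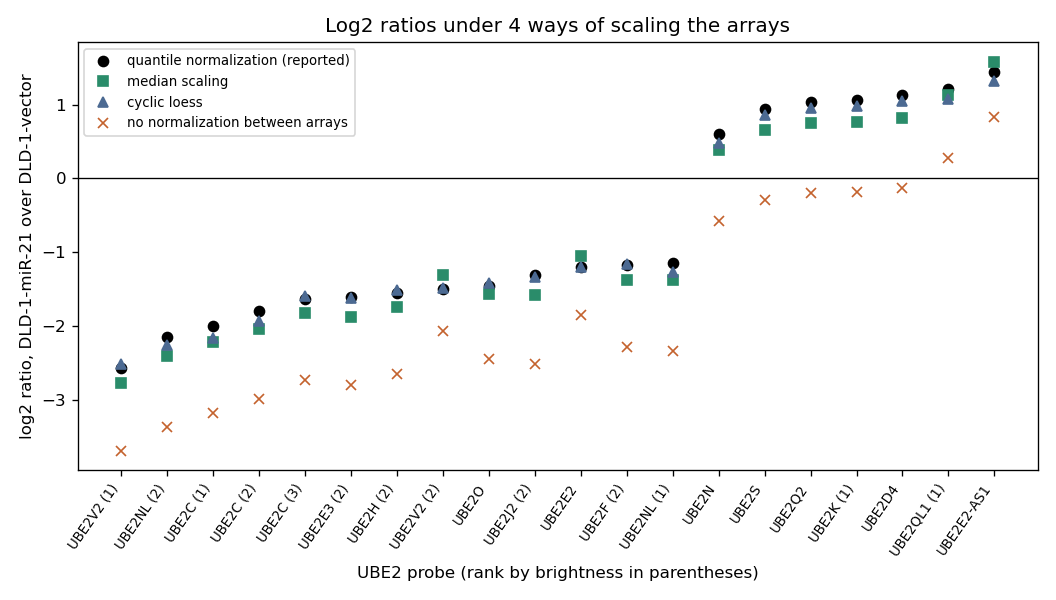
Log2 ratios (y axis) of the 18 UBE2 probes past the test with a ratio of at least 1 in either direction, and of UBE2S and UBE2N, under 4 ways of scaling the arrays. Every probe lower after quantile normalization stays below 0. UBE2N, UBE2S, UBE2Q2, UBE2K and UBE2D4 cross to below 0 without normalization.

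Probes of 1 gene often gave different values. Of the 29 genes, 16 had 1 probe and 13 had several. Among the 13, all probes were called lower for 3 genes (UBE2C, UBE2NL and UBE2V2), probes were called in both directions for UBE2J2 and UBE2K, some but not all were called for 5 (UBE2E3, UBE2F, UBE2H, UBE2QL1 and UBE2R2), and none for 3 (UBE2G1, UBE2J1 and UBE2T). Over all genes with several probes, 10.8% had probes called in both directions. UBE2J2 had 14.69 and 14.59 against 15.12 and 15.14 on its brighter probe (log2 ratio 0.49, adjusted p = 0.0315 from limma) and 11.72 and 11.67 against 10.49 and 10.28 on the other (log2 ratio -1.31, adjusted p = 0.00435 from limma). The fall of UBE2J2 was called under each scaling, while its rise, like the fall of the second UBE2K probe, was lost without any single array. The rise was also not called with median scaling (0.31) or cyclic loess (0.38), and without normalization the probe was called lower (-0.65, adjusted p = 0.0292 from limma). UBE2E3 had 0.18 and -1.60 (11.95 and 11.96 against 10.57 and 10.13 on the latter, adjusted p = 0.00558 from limma).

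The 12 rises all lay on the brightest probe of a gene or on its sole probe. On the brightest probe, 19 of 29 genes were called, 12 higher and 7 lower, against 47.0% of all genes, 24.6% higher and 22.4% lower, and the median log2 ratio was 0.31. On the 14 further probes 9 were lower and 0 higher (limma, also 0 higher at an unadjusted p under 0.05), against 28.6% and 15.3% of all further probes, with a median of -1.24. The brightest probes of the same 13 genes had 4 higher and 3 lower, against 29.4% and 19.9% of all such genes. The brightest probe was chosen by its mean over all 4 arrays, which disfavors a probe that fell. With the brightest probe in DLD-1-vector cells instead, a choice made after the data were seen, it was 10 genes higher and 8 lower, and with the second probe of the 13 genes in place of the brightest, 8 of 29 were higher and 12 lower.

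**Figure D5:**
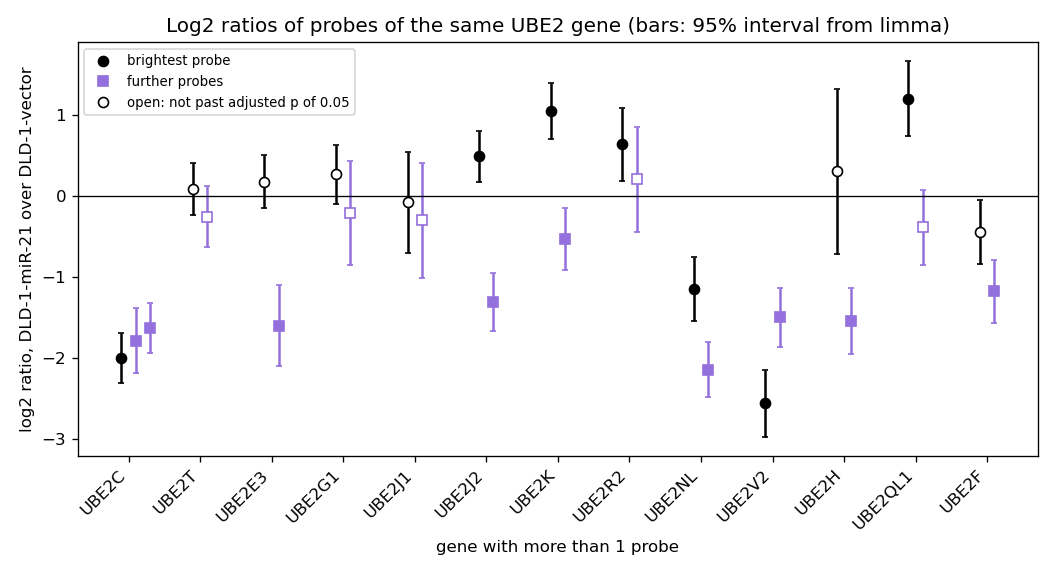
Log2 ratios (y axis, bars are 95% intervals from limma) of the probes of the 13 UBE2 genes with more than 1 probe. Circles are brightest and squares further probes, and open symbols did not pass an adjusted p of 0.05. UBE2C has all 3 probes between -2.0 and -1.63, while UBE2J2 and UBE2K have filled symbols on both sides of 0.

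At the step before the E2 enzymes, the E1 genes fell. All 6 measured genes of a list of 8 were called lower on their brightest probe, with a median log2 ratio of -1.43, against 22.4% of all genes called lower. UBA1, the main E1 of ubiquitin, had a log2 signal of 12.24 and 11.94 in DLD-1-vector and of 9.15 and 8.81 in DLD-1-miR-21 cells (log2 ratio -3.11, limma adjusted p = 0.00223, standard error 0.19). Its deposited intensity went from 6531 and 5714 to 295 and 319. SAE1, a subunit of the SUMO E1, had 14.35 and 14.38 against 11.37 and 11.40 (log2 ratio -2.98, adjusted p = 0.00196 from limma), although a second probe gave -0.23 and was not called. NAE1 and UBA3, which together activate NEDD8, had -1.64 and -1.23.

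UBA6 and UBA7 lay below the median probe and had -0.77 and -0.54. With median scaling 4 of the 6 were lower, without DLD-1-miR-21 replicate 1 it was 3, without DLD-1-vector replicate 1 it was 4, and without DLD-1-miR-21 replicate 2 none, with 5 at an unadjusted p under 0.05 from limma.

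E2 enzymes and E2-related genes with other symbols were split, with 3 of 7 higher and 2 lower, against 24.6% and 22.4% of all genes. The 7 were CDC34, BIRC6, ATG3, ATG10, UFC1, AKTIP and TSG101. With 1 array left out, 1 was higher and 0 lower (DLD-1-vector replicate 1), 0 higher and 1 lower (DLD-1-miR-21 replicate 1), or 0 in either direction (replicate 2 of either line). The unadjusted limma p was under 0.05 in each of these fits for 2 that were lower and for 2 or 3 that were higher. CDC34, the E2 of cullin ligases, rose by 0.66 (15.03 and 15.15 against 15.64 and 15.85, adjusted p = 0.0228 from limma), and ATG3, which conjugates the ATG8 proteins of autophagy, fell on both probes, by 0.56 and 1.00. With median scaling none of the 7 was called higher, with 1 at an unadjusted p under 0.05 from limma, so the CDC34 rise was not called there, and without normalization its ratio was -0.42. BIRC6 was called in both directions, with 0.66 and -1.71. AKTIP was called higher on its brighter probe (0.46), while the other had -0.19 and was not called.

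Of 5 measured modifier genes, NEDD8 rose by 0.72 on its brighter probe (adjusted p = 0.0129 from limma, with -0.02 without normalization). Its second probe, also bright, had 0.08 and was not called (adjusted p = 0.668 from limma). SUMO3 fell by 1.43 (adjusted p = 0.00558 from limma), and UBB, SUMO2 and ISG15 were not called, at 0.02, 0.19 and 0.12. The UBB ratio depended on the scaling, with 0.51 for median scaling and -0.45 without normalization, neither called. Quantile normalization sets a value by its rank on the array, and this probe had 18.54 on replicate 2 of both lines. The NEDD8 rise was not called without DLD-1-miR-21 replicate 1 or 2, and the SUMO3 fall was not called without replicate 2 of that line, although both had an unadjusted p under 0.05 from limma. For all genes the shares called were 24.6% higher and 22.4% lower. The second probe of UBB, one of the polyubiquitin genes, was less bright but above the median probe. It fell by 1.71 (adjusted p = 0.00326 from limma).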

How the data were processed

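Single-color (Cy5) oligonucleotide arrays measured RNA of both lines, 2 arrays a line. The deposited values are probe intensities on a linear scale, 1 per probe and array, for 31741 probes. What the authors did between scan and deposit (background, flags, normalization) is not given in the sources used here beyond that the methods call the deposit raw data, and some intensities lie below 0, the lowest at -25. Groups were taken from the genotype labels, since the source labels call both lines control. Probe names came from GEO's platform annotation, which gave 1 symbol to 24740 probes, several to 977 and none to 6024.

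The intensities were quantile-normalized, 50 was added and log2 was taken. All probes were fitted with lmFit and eBayes (limma 3.58.1, R 4.3.3), with line as the only term and 4.48 total degrees of freedom. Adjustment was by Benjamini-Hochberg over all probes. Within-array differences of gene pairs were tested by exact permutation. The brightest probe of a gene is that with the highest mean log2 signal over the 4 arrays. Probes past the test with a log2 ratio of at least 1 in either direction were to be named, and values for all other members were added. Members, lists and pairs were chosen with earlier results of these data known. Alternatives were median scaling, cyclic loess, no normalization, offsets of 16 and 100, a filter that drops the dimmest 25% or 50%, a robust variance trend, replicate number as a block, each array left out, other probes of a gene, and the study's thresholds. The small number of arrays limits the precision.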

Additional observations from a re-analysis of the deposited data

How the results depend on the processing

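The count of UBE2 probes called higher, 12, was 5 with median scaling, 1 without normalization, 7 with the replicate block, 5 with the study's thresholds (log2 ratio past 1, unadjusted p under 0.05 from limma), and 0 to 8 with 1 array left out. The count called lower, 16, was 34 without normalization and 0 to 15 with 1 array left out. On the brightest probe of each gene, 12 genes were higher, with 5 under median scaling, 1 without normalization, 7 with the replicate block and 0 to 8 with 1 array left out, and 7 were lower, with 20 without normalization, 12 with the second brightest probe and 0 to 7 with 1 array left out. The median log2 ratio of -0.21 was -1.11 without normalization, 0.0072 with the dimmest 50% left out, and -0.31 to 0.039 with 1 array left out. Of all 31741 probes, 7294 were higher and 6912 lower. These counts were 6032 and 6294 under median scaling, 416 and 14025 without normalization, and 5678 and 5744 with the replicate block. The causes of these shifts were not tested, except that leaving out an array leaves fewer samples. Of the 18 probes with a log2 ratio of at least 1 in either direction, all were called the same way with median scaling, cyclic loess, both other offsets, the dimmest 25% left out, the robust variance trend, the replicate block and without either DLD-1-vector array. Without DLD-1-miR-21 replicate 1 it was 15, and without DLD-1-miR-21 replicate 2 none, as of all 31741 probes (limma). In these fits the spread comes only from the line with both arrays left. Without normalization 14 held, UBE2QL1 lost its call, and UBE2D4, UBE2K and UBE2Q2 had -0.12, -0.19 and -0.20. Deviations of same-numbered arrays from their line means correlated at -0.07 across all probes. The labels do not say whether same-numbered arrays were processed together. The dimmest UBE2 probes, those of UBE2Q2P1 and UBE2E2-AS1, rest on intensities where the offset of 50 weighs most.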

Other observations

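Genes of the ligases that the E2 enzymes work with, and of proteins that act with these ligases, also moved in both directions. CDC20, FZR1 and DCUN1D1 are in the list without being ligases themselves. Of 41 genes in this list, chosen with earlier results known, 39 were measured. On the brightest probe 8 rose and 14 fell in the line with miR-21 (limma, adjusted p under 0.05), against 24.6% and 22.4% of all genes. The median log2 ratio was -0.18. Of the 8 rises none was called without normalization, where 27 genes were lower, and 2 were called without DLD-1-miR-21 replicate 1. Without DLD-1-miR-21 replicate 2 none of the 39 was called, while the unadjusted p from limma was under 0.05 for 8 that were higher and 14 that were lower.

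RNF26 had the lowest log2 ratio of these ligases, -3.42 (adjusted p = 0.00196 from limma). STUB1, the ligase of misfolded chaperone clients, fell by 2.93, and RNF4, which ubiquitinates proteins carrying SUMO chains, fell by 2.26. ANAPC2, the cullin subunit of the APC/C that UBE2C and UBE2S serve, fell by 1.46. On their brightest probes UBE3A (-1.27), ARIH2 (-1.16), RNF25 (-1.11), HUWE1 (-1.05) and RANBP2 (-1.05) were also called lower. The second probes of HUWE1 (0.21) and RANBP2 (0.32) were not called. CDC20 and FZR1, substrate-recruiting activators of the APC/C, rose by 1.08 and 0.60. RNF168, a ligase that works with UBE2N at DNA breaks, rose by 1.53, with DLD-1-vector arrays that stood apart (deposited 2154 and 919), a 95% interval of 0.40 to 2.66, an adjusted p of 0.044 from limma and a ratio of 0.32 without normalization. MAEA, of the ligase complex that UBE2H serves, fell by 1.94. UBR2 and XIAP had probes on both sides of 0, with 1.81, 2.09 and -0.89 for UBR2 and 1.31 and -0.91 for XIAP.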
